A study of Mus musculus with 8 samples.

Results

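The junction-usage table of the series listed 498 splicing events that differed between AAV-Cre and AAV-GFP hepatocytes at the authors' threshold of p below 0.05, and 260 of them were choices between alternative splice sites. All rows of its 2 splice site sections were taken, whatever the size of the change. There were 158 events at 5' splice sites, where an intron begins, and 102 events at 3' splice sites, where it ends. They lay in 239 named genes, 151 at 5' sites and 95 at 3' sites, and 12 events carried no gene name, 6 in each section. Events of both sections were listed for 7 genes, Cdv3, Clcn7, H2afy, Kng1, Rab11fip1, Taf1d and Tpm1. The rest of the table held 131 cassette exon, 84 composite, 19 intron retention and 4 mutually exclusive exon events.

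The cells were hepatocytes isolated from C57BL/6J mice with floxed Srsf3 alleles (Srsf3 flox/flox) and grown as cultures. For 48 h they were exposed to an adeno-associated virus (AAV) carrying either Cre recombinase, which cuts out DNA between the flox sites of Srsf3, or green fluorescent protein (GFP). Both groups carried the floxed alleles and received a virus, and each had 4 libraries, which nothing in the labels ties to separate animals. The tables give 1 value per comparison or group, so the depth and the spread between libraries are unknown, and no expression level was at hand to check the hepatocyte label against marker genes.

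Srsf3 itself was used to check the labels. Percent spliced in (PSI) is the share of a junction among competing junctions, from 0 to 1. The junctions compared enter the exon that starts at position 29039454 of chromosome 17 (mm10). The one from the exon end at 29038624 is annotated only in nonsense-mediated decay or retained-intron transcripts. Its PSI was 0.006 in AAV-Cre against 0.995 in AAV-GFP, by the authors' deposited table of local variations. The junction from 29032786 to the same exon, which bypasses the exon end at 29038624, went from 0.005 to 0.994 in that authors' deposited table. It is annotated in no transcript. Both values are shares of entry into this exon and not levels of Srsf3 mRNA. The groups thus differed at Srsf3 in the direction of their labels.

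A 5' splice site is first paired with U1 snRNA, and a 3' splice site is recognised by U2AF at the pyrimidine tract and the AG that follows it. Where an exon has competing sites, SR proteins such as SRSF3, which bind exon sequence, can favour one over another through contacts with these factors. The choice of site sets how much of an exon is kept. A length that is a multiple of a codon leaves the downstream reading frame as it was. Tandem acceptors a single codon apart, known as NAGNAG sites, are a frequent form of 3' choice.

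For each event the change in PSI of every site is given as AAV-Cre minus AAV-GFP. The form that uses the site nearest to the common partner site of the event is called the longer form. A positive change at this site means more use of the longer form in AAV-Cre. The distance is counted in nt between the outermost sites. A pair is called within-exon where 1 exon annotated in GENCODE vM21 holds the whole segment between the sites. It is called cross-exon where the sites belong to separate exons or the longer form has no annotated exon. In within-exon pairs the longer form is taken as the longer version of 1 exon, unless only retained-intron transcripts hold the segment. Without such transcripts, 85 of the 94 within-exon pairs remained within-exon. In the others the sites can belong to separate exons. In cross-exon pairs the name marks only the nearer site, since the sites can belong to separate exons. An event was called changed at a q-value (the authors' p-value adjusted over their tests) of 0.05 or less with a change of at least 0.1 at any of its sites.

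A called within-exon 5' pair (Dsp) and 5 with sites 5 to 12 nt apart and changes in both directions are printed first, 5' to 3', read from the GENCODE vM21 transcripts (GRCm38, the mm10 build). Lower case marks the last 12 bases kept in both forms, and capitals mark up to 18 bases of the segment that only the longer form keeps. The first capitals are therefore the 5' splice site of the shorter form.

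Dsp, chr13:38191847-38191876, plus strand: gagctggcaaagGTAAGAAACCACTATAAT

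Pkp4, chr2:59305180-59305197, plus strand: ctctccatgaaaGTGAGG

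Hnrnpr, chr4:136316468-136316484, plus strand: tctcatgtccagGTAAG

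Ldb1, chr19:46034032-46034049, minus strand: ctctccagccagGTACCT

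Myo9b, chr8:71350178-71350195, plus strand: tccccagtcaagGTACAG

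Pgap2, chr7:102236531-102236554, plus strand: aagaagcacacaGTAAGTCAGGAG

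Of the 48 within-exon 5' pairs, 47 had a segment that begins with GT and 1 (Csnk1a1) with GC, so the inner site has the dinucleotide of an intron start in each. For 44 of them 9 bases around the inner site could be read, and a median of 6 matched the consensus CAGGTAAGT, with a range of 4 to 8. The median was also 6 in the 21 pairs with more of the longer form in AAV-Cre and in the 15 with less. Matches to the consensus were thus alike by this count in both directions.

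The 3' pairs are printed the other way round, with up to 18 bases of the segment that only the longer form keeps in capitals, followed in lower case by 12 bases kept in both forms. The first 6 are tandem sites a codon apart, chosen because this distance was the most frequent one. The last 3 have longer segments that end in an AG, after a pyrimidine-rich stretch in Clcn7 and U2af2.

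Larp4, chr15:99984917-99984931, plus strand: CAGgtgacatctaaa

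Ctcf, chr8:105680071-105680085, plus strand: AAGaaaatgctgagc

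Nrf1, chr6:30089912-30089926, plus strand: CAGtagatcttcatg

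Chtop, chr3:90503268-90503282, minus strand: AAGagcttaaagcag

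Plekhg3, chr12:76572047-76572061, plus strand: CAGccagagcagtgg

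Srsf10, chr4:135863523-135863537, plus strand: CAGtagaccgactgg

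Clcn7, chr17:25153732-25153756, plus strand: CTCTTCTGTGCAGatggcgaataca

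Ndufa11, chr17:56721348-56721377, plus strand: ACCTGTGTCAGTGCCCAGgtccgagagaag

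U2af2, chr7:5069426-5069455, plus strand: CTCCTATTCCCTCTGCAGgaggctatgatg

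All 46 segments of the within-exon 3' pairs end in AG. Of the 19 segments of 3 nt among them, 12 were CAG, 5 AAG, 1 GAG and 1 TAG. The TAG belongs to Tcea1, a transcription elongation factor. Short binding motifs of SRSF3 were counted on the sense strand in the 50 exon bases next to the shorter form's site. CATC was found in 6 of 42 such windows at 5' sites (14.3%) and 8 of 44 at 3' sites (18.2%), against 23.6% and 22.0% of the same windows of 171178 internal exons. The degenerate motif WCWWC, where W stands for A or T and which contains CATC in some of its forms, was found in 33.3% and 27.3% of the windows, against 36.8% and 34.0%. These counts describe letters in a window and were not tested.

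The distances separated the 2 kinds of site. Most events (122 at 5' and 87 at 3' sites) had exactly 2 sites. Their median distance was 568 nt at 5' sites (n = 122) and 87 nt at 3' sites (n = 87), with ranges of 3 to 65937 and 3 to 47656 nt. Sites 100 nt apart or less made up 32 of the 122 and 45 of the 87 pairs. A distance of 3 nt was found in 20 of the 87 3' pairs, 19 of them within-exon, and in 1 of the 122 5' pairs, Mau2, a cohesin loader subunit. At 5' sites the most frequent short distances were 6 nt (5 pairs) and 12 nt (4 pairs), and no 3' pair had a distance of 12 nt.

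**Figure D1:**
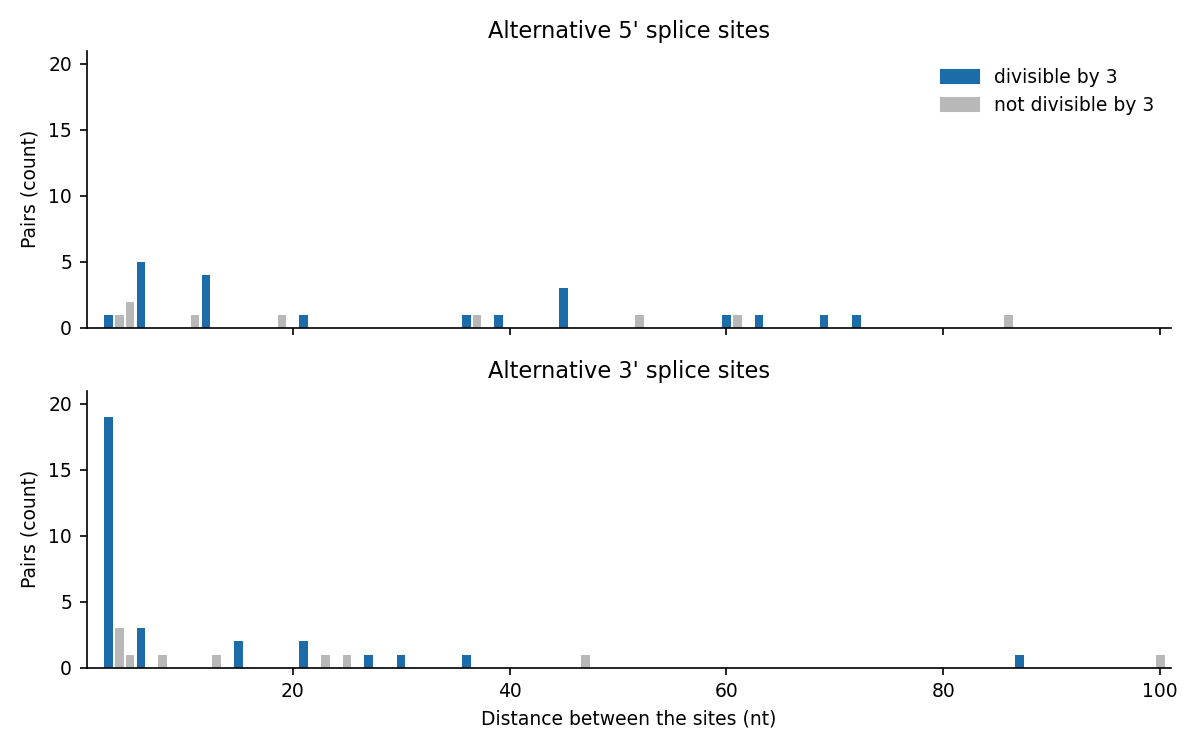
Number of within-exon pairs (vertical axis, count) at each distance between the sites up to 100 nt (horizontal axis, nt), for 5' sites above and 3' sites below, with distances divisible by 3 in blue. The bar of 19 pairs at 3 nt stands out at 3' sites, while no bar exceeds 5 pairs at 5' sites.

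By count, distances divisible by 3 were more frequent in within-exon than in cross-exon pairs of both sections. At 5' sites the distance was divisible by 3 in 26 of 48 within-exon pairs (54.2%, exact 95% binomial interval 39.2 to 68.6) and in 20 of 74 cross-exon pairs (27.0%, 17.4 to 38.6). At 3' sites it was divisible by 3 in 32 of 46 within-exon pairs (69.6%, 54.2 to 82.3) and in 16 of 41 cross-exon pairs (39.0%, 24.2 to 55.5). Most of these 32 within-exon pairs, 19, had a distance of 3 nt. The intervals cover counting error over listed events only, which are not replicates, and the differences were not tested. For pairs that join separate exons the distance is not the change in exon length.

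Most within-exon segments overlapped coding sequence. A segment is called coding here where it overlaps, even in part, the coding sequence (CDS) of at least 1 annotated transcript that covers it. At 5' sites 26 of the 48 segments were coding by this rule. Of the others 12 were in a 5' UTR, 3 in a 3' UTR and 1 in a noncoding transcript, and 6 were covered only by retained-intron transcripts. Of the 26 coding segments 17 were divisible by 3, as were 7 of the 12 in a 5' UTR. At 3' sites 39 of the 46 segments were coding, 28 of them divisible by 3. Few segments (3 of 48 and 1 of 46) overlapped an exon of the opposite strand. Both sites were annotated exon ends in 98 of the 122 5' pairs and 62 of the 87 3' pairs, only the longer form's site in 6 and 14, only the shorter form's site in 17 and 9, and neither in 1 and 2.

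Most cross-exon pairs had sites far apart, and 3 of 74 at 5' and 5 of 41 at 3' sites lay within 100 nt. Their median distance was 2556.5 nt at 5' sites (n = 74) and 2903 nt at 3' sites (n = 41), against 60.5 nt (n = 48) and 5.5 nt (n = 46) within exons. At 5' sites the exon of the longer form was annotated as a first exon in 37 of these pairs, as an internal exon in 17 and as both in 5, and in 15 its site was no annotated exon end. At 3' sites it was annotated as a last exon in 9, as an internal exon in 12 and as both in 9, and 11 sites were no annotated exon end. None of the 74 and 41 cross-exon pairs matched, within 2 nt at each end, a cassette exon listed in the same table. Cross-exon pairs were thus the larger number at 5' sites (74 against 48) and the smaller at 3' sites (41 against 46).

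**Figure D2:**
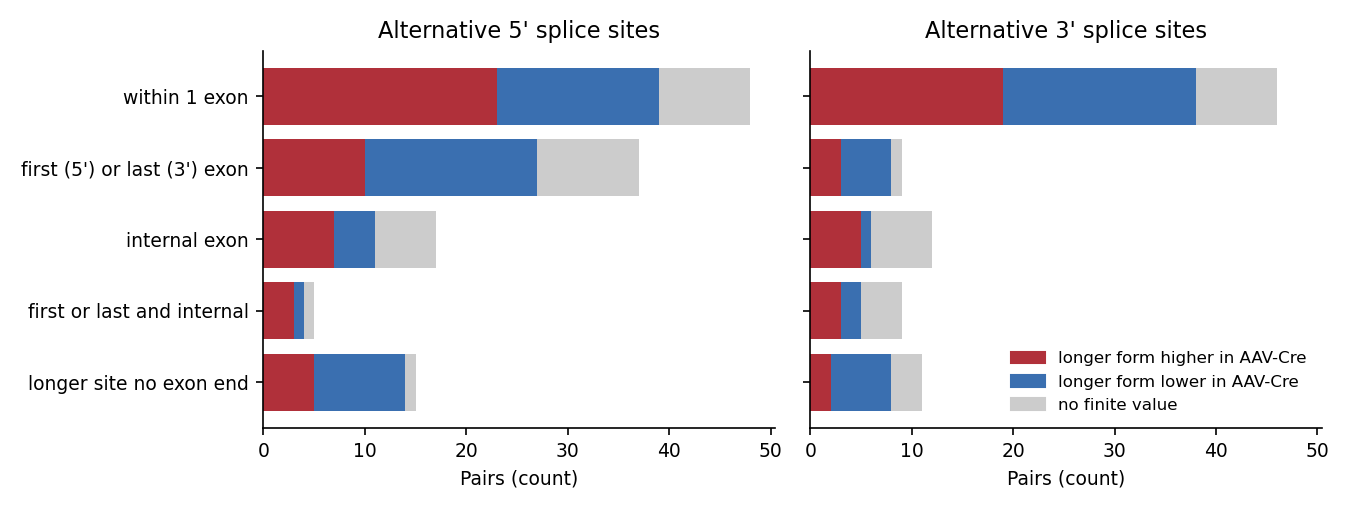
Number of pairs (horizontal axis, count) by kind of pair, given for cross-exon pairs by the annotation of the longer form's exon, for 5' sites on the left and 3' sites on the right, split by the sign of the change of the longer form or the lack of a finite value. Within-exon pairs are the largest kind in both sections, 48 and 46, and pairs with a first exon follow at 5' sites with 37.

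The authors' deposited table gave no finite change for 57 of the 260 events, 32 at 5' and 25 at 3' sites, and for 63 of all 498. The 203 others, 126 at 5' and 77 at 3' sites, are the events with a direction. In the authors' deposited table the median of the largest change per event was 0.193 at 5' sites (126 events), 0.235 at 3' sites (77 events) and 0.216 over the 435 events of the whole table with a finite change. A change of at least 0.1 was found in 87 of the 126 and 60 of the 77 events, beside 73.8% of the whole table. Changes of 0.5 or more were found in 12 events of each section, and changes under 0.02 in 11 and 8.

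The longer form was higher in AAV-Cre in 65 of 126 events at 5' sites (51.6%, exact 95% interval 42.5 to 60.6) and in 37 of 77 at 3' sites (48.1%, 36.5 to 59.7). Both intervals include an even split, and both counts mix within-exon with cross-exon events. Among within-exon pairs it was higher in 23 of 39 at 5' sites and 19 of 38 at 3' sites. Of the 5' pairs whose longer form starts from a first exon, 10 of 27 had more of it. Within exons, the 5' pairs with more of the longer form had a median distance of 61 nt (n = 23) and those with less of it 15.5 nt (n = 16), while at 3' sites the medians were 4 nt (n = 19) and 6 nt (n = 19).

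At 5' sites the within-exon pairs with a distance divisible by 3 had larger changes in the authors' deposited table, with a median of 0.351 (18 pairs) against 0.0935 (21 pairs) for the others. At 3' sites the medians were 0.166 (26 pairs) and 0.187 (12 pairs) in the authors' deposited table. The 2 sections thus differed in this respect by their medians, a difference that was not tested.

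**Figure D3:**
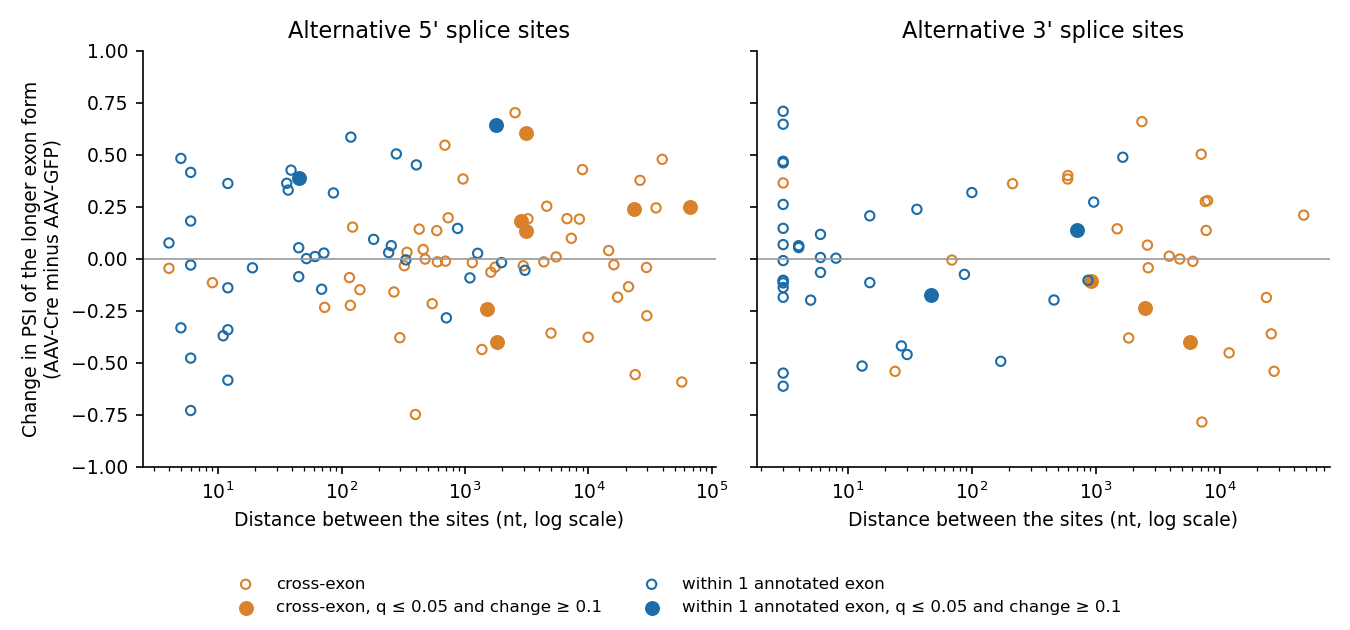
Change in PSI of the longer form (nearer site), AAV-Cre minus AAV-GFP (vertical axis), for each pair with a finite change. The horizontal axis gives the distance between the sites (nt, log scale). Filled points are the called pairs, 9 at 5' and 5 at 3' sites. Points lie on both sides of 0 at all distances, and the column of 3' pairs at 3 nt spans changes from -0.612 to 0.709.

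Called events were 13 of the 158 at 5' sites and 8 of the 102 at 3' sites, beside 11.4% of all 498 listed events (57). At any size of change, 21 and 10 events had a q-value of 0.05 or less, beside 14.7% of the whole table. The counts in both sections give shares below these, a difference that was not tested. Events with no finite change could not be called, and they were 57 of the 260 events here and 63 of all 498. The listing itself ends at a p of 0.0496 at 5' sites and 0.0493 at 3' sites. Of the 13 called 5' events the longer form was higher in 9, and of the 8 called 3' events in 1, U2af2. Only 2 of the 9 called 5' pairs and 2 of the 5 called 3' pairs were within-exon.

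**Figure D4:**
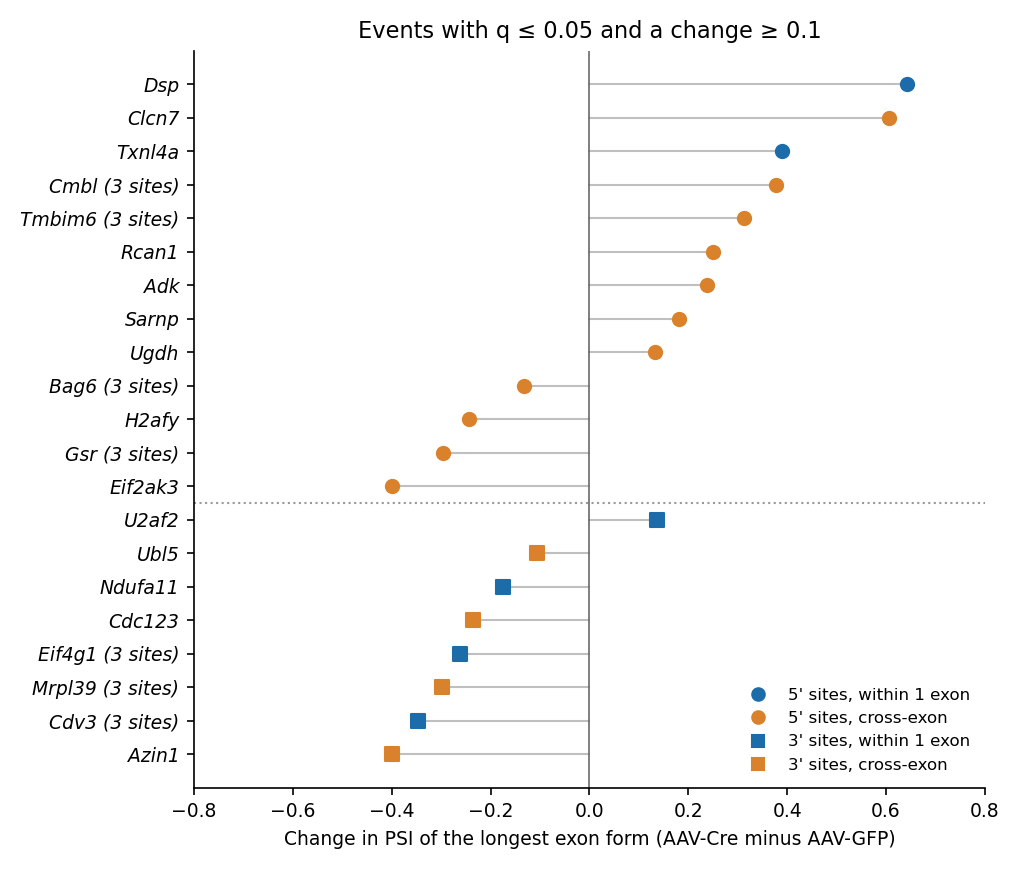
Change in PSI of the longest form (nearest site), AAV-Cre minus AAV-GFP (horizontal axis), for the 21 called events. The 5' sites (circles) lie above and the 3' sites (squares) below the dotted line. Of the 13 circles 9 lie right of 0, and of the 8 squares 7 lie left of it.

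Dsp and Txnl4a were the called 5' pairs within 1 exon, and both changed towards the longer form. Dsp encodes desmoplakin, which ties desmosomes to intermediate filaments, and its known isoforms I and II differ by such a choice. Its sites on chromosome 13 (38191858 and 38193655) lie 1797 nt apart in coding sequence, a multiple of 3. The longer form rose by 0.642 (q = 0.00310) in the authors' deposited junction-usage table. By the authors' deposited table of local variations its PSI was 0.945 in AAV-Cre against 0.373 in AAV-GFP. Txnl4a, a component of the U5 snRNP, has its sites 45 nt apart in a 5' UTR on chromosome 18. Its longer form rose by 0.390 (q = 8.81e-06) in the authors' deposited table, and its PSI went from 0.006 to 0.308 by the local variations, where the pair stood under the overlapping Gm16286.

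In 4 called pairs the longer form starts from a first exon, and in 3 of them this downstream exon rose. Clcn7 encodes a chloride and proton exchanger of lysosomes. The authors' deposited table gave a rise of 0.606 for its downstream first exon (site 25136763 on chromosome 17, 3149 nt from the other; q = 0.00464), whose PSI by local variations was 0.740 in AAV-Cre against 0.187 in AAV-GFP. Rcan1, a regulator of the phosphatase calcineurin, has known alternative first exons, here with sites 65937 nt apart on chromosome 16, the longest distance of all 5' pairs. Its downstream first exon rose by 0.250 (q = 0.00226) in the authors' deposited table, from a PSI of 0.638 to 0.963. Adk, adenosine kinase, has known forms that differ in their first exon, here with sites 23621 nt apart. Its downstream exon rose by 0.239 (q = 0.0178) in the authors' deposited table, from 0.269 to 0.526.

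Eif2ak3, which encodes the stress kinase PERK of the endoplasmic reticulum, moved the other way. Its downstream exon, whose junction is annotated only in a retained-intron transcript, fell by 0.399 (q = 0.0160) in the authors' deposited table, from a PSI of 0.258 to 0.004. H2afy, the histone variant macroH2A1, has known forms with mutually exclusive exons. Its sites lie 1506 nt apart on chromosome 13, and the internal exon nearer to the common site fell by 0.243 (q = 0.00197) in the authors' deposited table, from 0.389 to 0.095. Sarnp, of the mRNA export machinery, and Ugdh, which makes UDP-glucuronate, had a longer form whose site is no annotated exon end. In the authors' deposited table these rose by 0.181 (Sarnp, q = 0.0113) and 0.133 (Ugdh, q = 0.0109).

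A further 4 called 5' events had 3 sites each. Tmbim6, a membrane protein of the endoplasmic reticulum that counters cell death, changed by 0.313, 0.0340 and -0.347 from the nearest to the farthest site (q = 0.00166) in the authors' deposited table. By the authors' deposited table of local variations the PSI of its nearest site was 0.349 in AAV-Cre against 0.038 in AAV-GFP. Bag6, a chaperone, changed by -0.133, -0.346 and 0.479 (q = 0.0167) in the authors' deposited table. Its farthest site was therefore the one that rose. Cmbl, a hydrolase, changed by 0.378, -0.672 and 0.294 (q = 0.0260) in the authors' deposited table, so that the middle site lost to both outer ones. Gsr, glutathione reductase, changed by -0.296, 0.135 and 0.161 (q = 0.0210) in the authors' deposited table, at sites of which the outer ones are not annotated.

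At 3' sites, Eif4g1 had the smallest q-value of both sections. It encodes a scaffold of the translation initiation complex. Its 3 acceptors on chromosome 16 (20675730, 20675760 and 20675763) changed by -0.261, 0.177 and 0.0845 (q = 2.11e-08) in the authors' deposited table. The longer form thus lost to a tandem pair of acceptors 30 and 33 nt further in, in coding sequence. U2af2 encodes the large subunit of U2AF, which itself binds the pyrimidine tract of 3' splice sites. Its longer form rose by 0.137 (q = 0.000312) in the authors' deposited table, at sites 711 nt apart on chromosome 7 whose segment is covered whole only by retained-intron transcripts.

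The other called 3' events all had less of the longer form. Ndufa11, a subunit of respiratory complex I, had sites 47 nt apart in coding sequence, a distance that does not keep the frame. In the authors' deposited table its longer form fell by 0.175 (q = 0.00923) in favour of an acceptor that GENCODE vM21 does not hold. Azin1, an antizyme inhibitor that raises polyamine levels, had sites 5746 nt apart, and the nearer one, of an internal exon, fell by 0.400 (q = 0.00904) in the authors' deposited table. Cdc123, an assembly factor of the initiation factor eIF2, had sites 2512 nt apart. The nearer one, of a last exon, fell by 0.235 (q = 0.0493) in the authors' deposited table, from a PSI of 0.338 to 0.004.

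Ubl5, a ubiquitin-like protein that binds the spliceosome, had sites 908 nt apart, and the nearer one fell by 0.106 (q = 0.00632) in the authors' deposited table. Mrpl39, of the mitochondrial ribosome, changed by -0.298, -0.0603 and 0.358 (q = 0.000646) in the authors' deposited table. Its nearest site, which is not annotated, went from a PSI of 0.289 to 0.004 by the authors' deposited table of local variations. Cdv3 changed by -0.347, -0.0400 and 0.387 (q = 0.0155) in the authors' deposited table, with its first and second acceptor 3 nt apart and the third 716 nt from the first. In Mrpl39 and Cdv3 the farthest site was therefore the one that rose.

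Tandem acceptors a codon apart made up 20 of the 87 3' pairs, and 0 of them were called, beside 5 of all 87 3' pairs. With so few calls among 3' pairs this is not a result about tandem sites. Of the 20 pairs, 16 had a finite change, and the longer form was higher in 8 of them. Their changes ranged from 0.00868 to 0.709 in size, with a median of 0.223 (16 pairs) in the authors' deposited table. Larp4, an RNA-binding protein that protects poly(A) tails, had the largest, 0.709 (q = 0.151), followed by the insulator protein Ctcf with 0.647 (q = 0.288) in the authors' deposited table. In the other direction, the authors' deposited table gave -0.612 (q = 0.420) for the noncoding RNA Lncpint and -0.550 (q = 0.168) for Plekhg3, a guanine nucleotide exchange factor. The transcription factor Nrf1 had 0.469 (q = 0.329) and Chtop, of the mRNA export machinery, 0.461 (q = 0.526) in the authors' deposited table.

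The first of these values are as large as those of called events, and their q-values did not pass. Mup2, a major urinary protein made by hepatocytes, had the smallest change of the 16, -0.00868 (q = 0.246), in the authors' deposited table. Ap2a2, of the clathrin adaptor, was the 1 pair at 3 nt outside an annotated exon, with 0.365 (q = 0.443) in the authors' deposited table.

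Large changes without a passing q-value were found at other distances too. At 5' sites the authors' deposited table gave the longer form 0.702 for Rab11fip1 (q = 0.146), an effector of recycling endosomes, 0.585 for the kinase Cdk11b (q = 0.288), 0.546 for Mbl2 (q = 0.314), the mannose-binding lectin, and 0.504 for Echdc2 (q = 0.308). In the other direction it was -0.748 for Gtf2ird1 (q = 0.108), -0.729 for Ldb1 (q = 0.261), -0.592 for Fam107b (q = 0.127) and -0.584 for Pgap2 (q = 0.412) in the authors' deposited table. The sites of Ldb1, a cofactor of LIM domain proteins, are only 6 nt apart. At 3' sites Mboat7, a lysophospholipid acyltransferase, had -0.785 (q = 0.130) and Rab11fip1 0.659 (q = 0.0712) in the authors' deposited table. The 2 events of Rab11fip1 share a junction, as do those of Kng1 (0.00903 and 0.0126 in the authors' deposited table), so neither pair is 2 separate measurements.

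The same choices were looked up in the authors' deposited table of local variations, which was made from the same libraries and is no independent measurement. It held both outer sites of 31 of the 158 5' events (19.6%) and 17 of the 102 3' events (16.7%), in 34 and 19 of its 862 variations (3.94% and 2.20%). Among events with a finite change, the longer form had the same sign of difference in 26 of 26 at 5' and 12 of 12 at 3' sites, on both strands. A change of at least 0.2 at a site was found for 30 of 31 and 16 of 17 events, beside 94.7% of all 862 variations, so changes of this size are the rule in that table. Of the called events, 9 of 13 and 3 of 8 were found there.

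**Figure D5:**
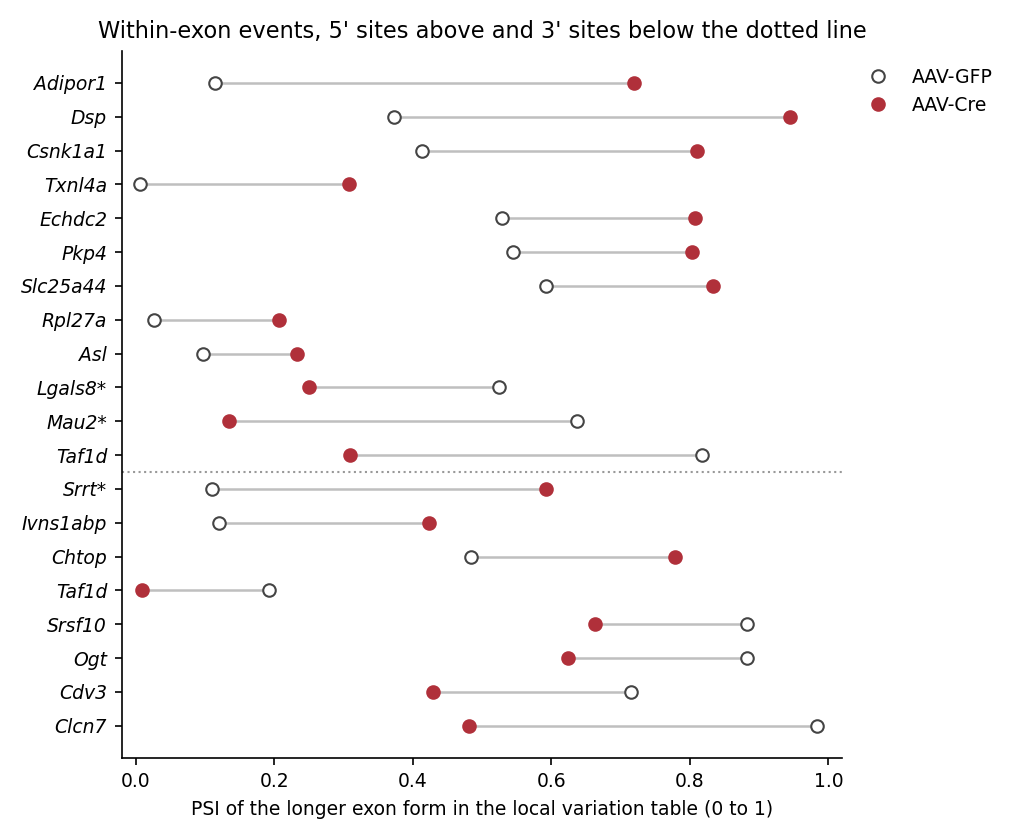
PSI of the longer form in AAV-GFP (open) and AAV-Cre (filled) in the local variation table (horizontal axis, 0 to 1) for the 20 within-exon events held by both tables, with 5' sites above the dotted line. An asterisk marks events with no finite change by junction usage. Adipor1 moved from 0.115 to 0.720 and Clcn7 from 0.983 to 0.482.

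Within exons, the group values put sizes of usage beside the changes. At the 5' site pair of the adiponectin receptor Adipor1, 404 nt apart in a 5' UTR, the authors' deposited tables gave the longer form a PSI of 0.720 in AAV-Cre against 0.115 in AAV-GFP (q = 0.182 by junction usage). Csnk1a1, casein kinase 1 alpha, went from 0.414 to 0.810 at sites 36 nt apart (q = 0.163) in the authors' deposited tables. Pkp4, a plakophilin-related protein of cell junctions, went from 0.545 to 0.803 at sites 6 nt apart (q = 0.294) in the authors' deposited tables.

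Taf1d, a subunit of the RNA polymerase I factor SL1, had less of the longer form in both sections. At its 5' sites the authors' deposited table gave a PSI of 0.309 in AAV-Cre against 0.818 in AAV-GFP, and at its 3' sites 0.010 against 0.193. Both segments are covered only by retained-intron transcripts. The nearer site of Taf1d can therefore belong to a separate exon, and its longer form need not be a longer version of 1 exon. At 3' sites the acceptors of Clcn7 that are 13 nt apart went from 0.983 to 0.482 (q = 0.279), and those of Ogt, the O-GlcNAc transferase, 30 nt apart, from 0.882 to 0.624 (q = 0.468), in the authors' deposited tables. By the authors' deposited table of local variations, the tandem acceptors of Chtop went from 0.484 to 0.778 and those of Srsf10 from 0.883 to 0.663.

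Clcn7 thus had a called event at its first exons and a large change without a passing q-value at an acceptor further on.

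Some events with no finite change by junction usage had large group differences in the authors' deposited table of local variations. The downstream first exon of Noct, a clock-regulated phosphatase of NADP(H), had a PSI of 0.969 in AAV-Cre against 0.185 in AAV-GFP by that authors' deposited table. The longer form of Mau2, with sites 3 nt apart, went from 0.637 to 0.135, and that of Bin1, a membrane-bending protein, from 0.563 to 0.1, in the authors' deposited table. Srrt, a cap-binding partner in RNA processing, went from 0.110 to 0.593 at acceptors 21 nt apart in the authors' deposited table. In all, 5 events at 5' and 5 at 3' sites with no finite change were held by both tables. The events named were chosen for a change of at least 0.2 there, which 94.7% of all 862 variations have. Nothing is therefore read from them about events with no finite change.

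The gene lists are described by counts alone. The share of all expressed genes that have a listed event was not computed, so the counts of listed genes have no reference, and the counts of called events stand beside 11.4% of all 498 events. With 0 to 4 listed genes in a list, nothing is read from them. Of 35 SR proteins and related factors, Acin1 and Srsf5 were listed at 5' sites and Srsf10 and Tra2a at 3' sites, and none was called. Acin1, of the exon junction complex, had 0.429 (q = 0.526) and Tra2a, an activator of exons, 0.383 (q = 0.594) in the authors' deposited table. The longest form of Srsf5 had -0.226 (q = 0.272) and that of Srsf10 -0.138 (q = 0.211) in the authors' deposited table. From a list of 32 genes grouped here under 5' site recognition and its helpers, Rbm5, Snrnp70 and Rbm25 were listed and none was called. Snrnp70, the U1 protein itself, had -0.0184 (q = 0.196) in the authors' deposited table.

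Among 29 factors of 3' site recognition, U2af2 was called, with more of its longer form, and Rbm39 was listed with 0.192 (q = 0.310) in the authors' deposited table. Among 46 hnRNPs and other regulators, Hnrnpr and Qk were listed and none was called. Hnrnpr had 0.483 (q = 0.371) at 5' sites 5 nt apart, and the shortest form of Qk -0.509 (q = 0.228), in the authors' deposited table.

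Outside the splicing machinery, 4 of 44 cytoskeleton and adhesion genes were listed, all at 5' sites, and Dsp was called. Myo9b, an unconventional myosin, had -0.477 (q = 0.223) and Pkp4 0.415 (q = 0.294) in the authors' deposited table. Among 31 genes of lysosomes, vesicles and polyamines, Clcn7 was called at 5' sites with more and Azin1 at 3' sites with less of the longer form, while Cltc and Sec31a were listed and not called. Among 51 genes of lipid, glucose and bile acid metabolism, Lpin2 and Srebf1 were listed at 5' sites, neither was called, and none was listed at 3' sites. Lpin2, a phosphatidate phosphatase, had -0.134 (q = 0.210) in the authors' deposited table. Srebf1, the lipogenic transcription factor, had a q-value of 0.0438 for its sites 10117 nt apart, with no finite change, in the authors' deposited table. Of 25 markers of other liver cell types 0 were listed, a count that likewise has no reference and is given as a description.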

How the data were processed

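The libraries held stranded mRNA and were read from both ends, per the labels' protocols. FastQC, STAR and the mm10 build are named per the submitters' processing notes, while their versions, roles and settings, and those of the splicing tools, were not given in the sources used here. Per the file headers, JUM produced the junction-usage table, cut at p below 0.05. From it come q-values, p-values and the change in PSI, a fraction, as the authors deposited them. The table of local variations has the VOILA column layout, per the file headers, with 1 expected PSI for each group. No table has a value for a single library, so the authors' p-values could reflect technical spread.

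Deposited right-hand junction coordinates lay 2 below the first exon base and were shifted. Sites were matched to GENCODE vM21, which also gave the sequences, since no genome sequence was used here. Direction and kind of pair were recovered in 100% of 200 simulated pairs. These were built with the same shift and strand rule, so this checks the code only. They held no event of more than 2 sites, no exon annotated both as internal and as first or last, and no retained-intron transcript. No test of events was run; intervals are exact binomial at 95%. Local changes are AAV-Cre minus AAV-GFP PSI, and a pair in several variations took the larger change.

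The members and lists were chosen with earlier results of these data known. Genes named were all called events, in each section and direction the 4 largest changes not called, list members, pairs also in the local variation table with a change of at least 0.2, and the shortest and longest distances, of which the text describes a choice made after the values were seen. Some genes of this rule are not reported here. Alternatives changed thresholds, counting per gene and the annotation. Python 3.11.15, scipy 1.17.1, numpy 2.4.6 and matplotlib 3.10.9 were used.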

Additional observations from a re-analysis of the deposited data

How the results depend on the processing

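Of 30 alternatives, 20 left counts within 1.5 times and shares within the exact 95% interval of the reported value. Called events at 5' sites rose from 13 to 87 at p below 0.05 with the same size. At 3' sites they went from 8 to 60 at p below 0.05, 13 at q of 0.1 or less, and 5 at a size of at least 0.2. The share with more of the longer form, 51.6% at 5' and 48.1% at 3' sites over all finite events, was 69.2% of 13 and 12.5% of 8 among called events. The share of distances divisible by 3 rose from 37.7% to 54.2% (5') and from 55.2% to 69.6% (3') within annotated exons, and to 65.6% and 75.6% at 100 nt or less. Within-exon pairs numbered 94, 85 without retained-intron transcripts and 69 by exon ends within 1 nt. The cause of these shifts was not tested.

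No paired analysis was possible because the tables hold 1 value per group or comparison and none per library, although the labels number the libraries 1 to 4 in each group. For the same reason no run without a library was made. The listing at p below 0.05 leaves out all other events, so no share here is one of all splice sites.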

Other observations

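Events of ribosomal protein genes, grouped after their values were seen, had small changes. There were 8 with a finite change, 6 at 5' and 2 at 3' sites. Their largest changes had a median of 0.0299 and reached 0.113 (Rpl34) in the authors' deposited table, against medians of 0.193 and 0.235 over the finite 5' and 3' events. Rpl27a and Rpl38, of the large ribosomal subunit, had q-values of 0.00346 and 0.0394 with changes of 0.0631 and 0.0490 in the authors' deposited table. The longer form of Rpl27a had a PSI of 0.207 in AAV-Cre against 0.026 in AAV-GFP by the authors' deposited table of local variations, a larger difference than by junction usage.

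Further events passed a q-value of 0.05 without being called. Changes under 0.1 were given for Nme2 (0.0448, q = 0.000587), Eef1b2 (0.00518 in size, q = 0.0300) and, at 3' sites, Brd2 (0.0659, q = 0.0337) in the authors' deposited table. No finite change was given for Smim14 (q = 8.18e-07), an unnamed event on chromosome 9 (q = 5.99e-06), Dgkd (q = 0.0297), Srebf1 (q = 0.0438) and, at 3' sites, Rbm14 (q = 0.0331) in the authors' deposited table.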
